A study of Mus musculus with 18 samples.

Results

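Potassium channel subunit genes were followed through cell bodies and axons of cultured mouse motoneurons with and without a knockdown of Smn. The genes were chosen by name: every gene whose only annotated symbol on the array is Kcn, a family letter or letters and a number. This gave 80 genes. 1 of them lacked values on 3 arrays and was not analysed here, which left 79 of the 18191 genes tested, read by 153 probe sets. A probe set is a group of short array probes for 1 transcript region, and where a gene had several (44 genes), the brightest one, by its mean of all 18 arrays, was used for it. The rule uses names and no measured difference, but it was set with earlier results of these data known. Auxiliary subunits that carry a Kcn symbol, such as beta subunits and the KChIP proteins, are included, and channels with other symbols are not.

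Potassium channels let potassium leave the cell, which repolarizes the membrane after an action potential, holds the resting potential and sets how often a neuron can fire. Voltage-gated pore subunits assemble as tetramers within a family: the Kcna (Kv1) family along the axon, Kcnc (Kv3) for fast repolarization, Kcnd (Kv4) for the transient A-type current of dendrites and cell bodies, and Kcnq (Kv7) for the M-current at the initial segment. Other families are opened by calcium or sodium (Kcnn, Kcnmb as partners of the BK channel, Kcnt), rectify inward (Kcnj) or leak at rest (Kcnk).

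The motoneurons came from the spinal cords of E12.5 mice, were enriched on plates coated to catch the p75 neurotrophin receptor, and grew for 7 days in chambers with microchannels that only axons cross. The axonal side alone received BDNF at 20 ng/ml, and CNTF at 5 ng/ml was given on both sides. There were 6 groups of 3 Affymetrix Mouse430_2 arrays: cell bodies with dendrites (somatodendritic) and axons of untreated wild-type cultures, of cultures given an empty lentiviral vector, and of cultures given a lentivirus whose short hairpin RNA targets Smn. The labels give no strain. RNA was amplified linearly in 2 rounds before hybridisation. Whether arrays within a group stem from different cultures is not stated, so p-values measure the spread between arrays, which may be technical. Titles of the knockdown arrays are numbered by another scheme than those of the controls, and handling apart, if any, and the knockdown cannot be told apart.

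The background level of an array was taken from 181 probe sets of genes that belong to other tissues, such as olfactory receptors: it is their 95th percentile. A group is said to be above background for a gene if all 3 of its arrays pass this level, and dim otherwise. The level lay between 6.55 and 6.72 (log2 expression value) on somatodendritic arrays, between 6.87 and 7.50 on axonal control arrays and between 7.71 and 8.42 on axonal knockdown arrays. Somatodendritic arrays had 9263 to 9766 genes above it, axonal control arrays 5632 to 8138 and axonal knockdown arrays 3203 to 5021, with axonal empty vector 2 and axonal knockdown 1 the lowest of their groups. Arrays of a group correlated across genes at 0.994 or more in cell bodies and at 0.744 to 0.902 in axons. The 1 probe set for Smn1 read between 4.86 and 7.01 and was below background on every array but axonal empty vector 1, so it checks no label. Defining motoneuron markers were few: of 10 measured, Prph, Ret and Ngfr were above background in somatodendritic controls, whereas Mnx1, Isl1 and Chat were not. All 5 measured markers of other spinal neurons, among them Gad1, Gad2 and Slc17a6, were above it, as were 7 of 8 astrocyte markers.

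Which potassium channel genes were present was asked first. In total 34 of the 79 genes (43.0%) were above background in at least 1 group, against 55.2% of all genes, and 45 were in none. Cell bodies had 27 in wild-type, 27 in empty vector and 26 in knockdown cultures. Axons had 12, 13 and 6. The corresponding shares were 34.2%, 34.2%, 32.9%, 15.2%, 16.5% and 7.6% of the 79 genes, and 50.9%, 50.3%, 50.2%, 30.4%, 24.4% and 11.9% of all genes. Fewer channel genes were above background in knockdown than in control axons, as was so for all genes. With the 99th percentile as background the axonal counts were 2, 4 and 3, and knockdown was no longer below wild-type. Of all genes, 21.1%, 13.0% and 5.6% were above it, so knockdown stayed lowest there. With at least 2 of 3 arrays required the counts were 24, 26 and 8, against 43.1%, 41.2% and 21.7% of all genes. The background level was higher on the axonal knockdown arrays, and its part in the count was not tested.

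**Figure D1:**
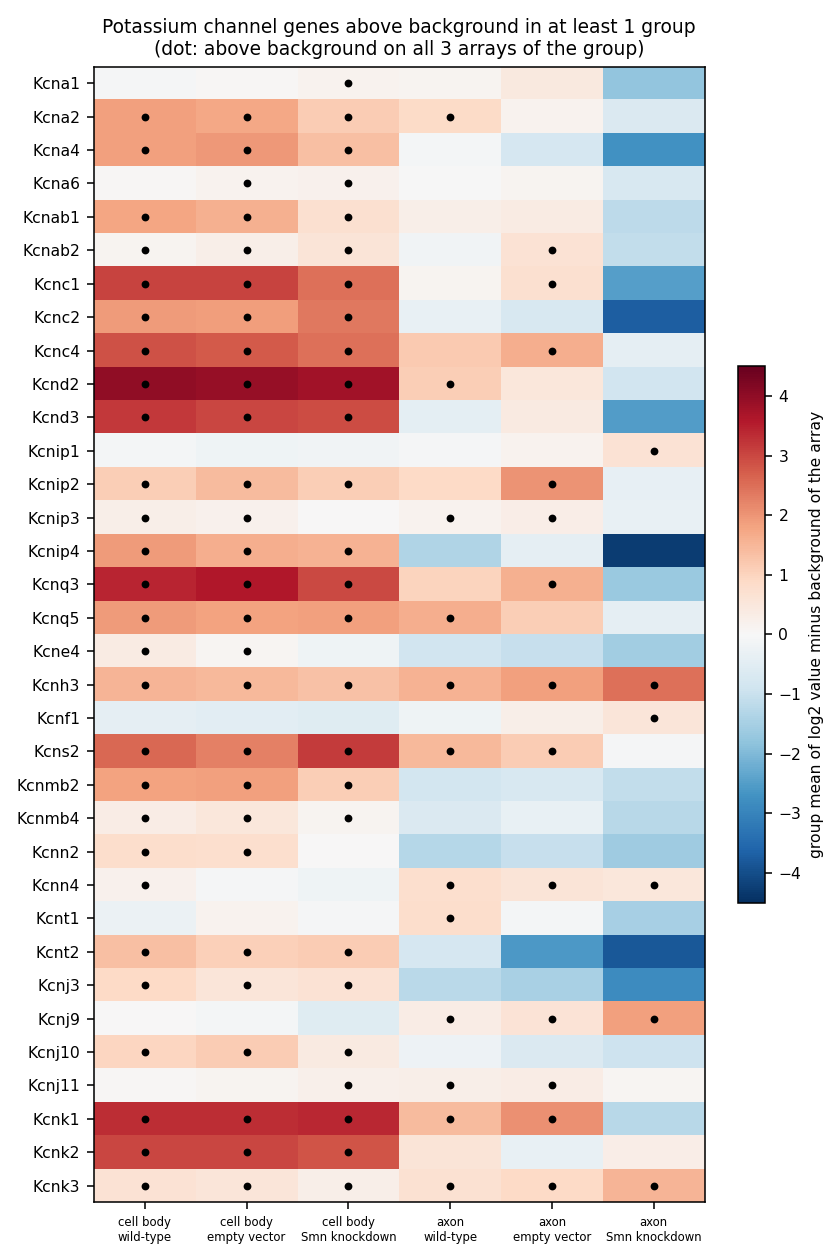
Heat map of the 34 potassium channel genes above background in at least 1 group (rows, ordered by family) in the 6 groups (columns). Colour is the group mean of the log2 value minus the background level of each array, over 3 arrays, and a dot marks groups above background on all 3. Most dots are in the 3 cell body columns (27, 27 and 26 genes), and the axon columns hold 12, 13 and 6.

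By family, 15 of 18 symbol families had a member above background, and the silent Kcng and Kcnv modifiers and Kcnu1 had none. All 3 Kcnc genes, all 4 KChIP genes (Kcnip1 to Kcnip4) and both sodium-activated Kcnt genes were above background in some group. The large families were sparse: 4 of 15 inward rectifiers (Kcnj3, Kcnj9, Kcnj10, Kcnj11), 3 of 12 leak channels (Kcnk1, Kcnk2, Kcnk3) and 1 of 6 Kcnh genes (Kcnh3). The Kv1 family had 4 of 7, with the beta subunits Kcnab1 and Kcnab2 beside them.

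In cell bodies 23 genes were above background in all 3 groups. They were the Kv1 pores Kcna2 and Kcna4 with Kcnab1 and Kcnab2, the Kv3 pores Kcnc1, Kcnc2 and Kcnc4, the Kv4 pores Kcnd2 and Kcnd3 with the KChIPs Kcnip2 and Kcnip4, the Kv7 pores Kcnq3 and Kcnq5, Kcnh3, the silent subunit Kcns2, the BK partners Kcnmb2 and Kcnmb4, Kcnt2, the inward rectifiers Kcnj3 and Kcnj10, and the leak channels Kcnk1, Kcnk2 and Kcnk3. In both axonal control groups 8 genes were above background: Kcnh3, Kcnip3, Kcnj9, Kcnj11, Kcnk1, Kcnk3, Kcnn4 and Kcns2. Only Kcnh3 and Kcnk3 were above it in all 6 groups. In the axonal knockdown group the 6 were Kcnf1, Kcnh3, Kcnip1, Kcnj9, Kcnk3 and Kcnn4. A group of 15 genes was above background in cell bodies and in no axonal group, Kcnd3, Kcnip4, Kcnk2 and Kcnmb2 among them, and the probe sets used for Kcnf1, Kcnip1, Kcnj9 and Kcnt1 were above it in an axonal group only. Other sets of Kcnf1 and Kcnip1 were above it in cell bodies. A gene missing from an axonal list had no more than a bound there.

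What the knockdown changed in cell bodies was asked against both controls. Against empty vector, 21 of the 79 genes passed the limma test at an adjusted p under 0.05 (6 higher, 15 lower), a share of 26.6% against 28.0% of all genes (2267 higher, 2821 lower), which is near the background. The median log2 difference was -0.04 for the 79 genes and -0.02 for all genes. Against wild-type 22 passed (5 higher, 17 lower; 27.8% against 36.0% of all genes, of which 2833 were higher and 3717 lower; median -0.10 against -0.03). Both comparisons use the same 3 knockdown arrays. Of the 21 genes, 14 were above background in some group, and 7 were dim everywhere. Among the 14, 3 rose (Kcns2, Kcnc2 and Kcnab2) and 11 fell. Knockdown and empty vector arrays did not overlap for 29 of the 79 genes (36.7%, against 43.3% of all genes). In a single fit to all 18 arrays, whose spread includes the more variable axonal arrays, 1 of the 79 passed against empty vector and 0 against wild-type. In bulk RNA, fewer cells of a type and less RNA per cell cannot be told apart.

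The BK partner Kcnmb2, a beta subunit that inactivates the large calcium-activated channel, had the lowest adjusted p. It read 8.38, 8.48 and 8.32 on wild-type, 8.38, 8.42 and 8.54 on empty vector and 7.70, 7.73 and 7.76 on knockdown arrays. Every knockdown array lay below every control array, and the spread within a group was small beside the gap. The fall was 1.64-fold against empty vector (log2 difference -0.71, SE 0.08, limma adjusted p = 5.51e-05) and 1.58-fold against wild-type (-0.66, adjusted p = 6.86e-05). The neuronal beta subunit Kcnmb4 read 7.25, 7.03 and 7.10 with empty vector and 6.71, 6.71 and 6.78 with the knockdown, 1.32-fold lower (-0.40, adjusted p = 0.00596). Against wild-type its difference of -0.20 missed the threshold (adjusted p = 0.102). Kcnn2, an SK channel that gives the afterhyperpolarization, went from 7.29, 7.14 and 7.68 to 6.69, 6.52 and 6.74, which is at the background level. It fell at least 1.63-fold against empty vector (adjusted p = 0.000999) and at least 1.64-fold against wild-type (adjusted p = 0.000655).

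In the Kv1 group, the pore Kcna2, the cytoplasmic beta subunit Kcnab1 and the pore Kcna4 fell. Kcnab1, which confers fast inactivation, read 8.37, 8.72 and 8.01 with wild-type, 8.06, 8.09 and 8.46 with empty vector and 7.35, 7.36 and 7.29 with the knockdown. The control arrays scattered, and the knockdown arrays lay close together below them all. The fall was 1.82-fold against empty vector (-0.87, SE 0.16, adjusted p = 0.0014) and 2.04-fold against wild-type (-1.03, adjusted p = 0.000295). With the mean of all Kcnab1 probe sets the differences were smaller, -0.42 (adjusted p = 0.0072) and -0.49 (adjusted p = 0.00207). Kcna2 read 8.58, 8.48 and 8.26, then 8.52, 8.25 and 8.31, then 7.76, 7.77 and 7.82 in the same order of groups, 1.49-fold lower than empty vector (-0.58, SE 0.10, adjusted p = 0.00116). Its other probe set above background, 1439872_at, averaged 7.06 with the knockdown and 7.09 with empty vector and showed no such gap, and the mean of all its sets gave -0.15 (adjusted p = 0.133). Kcna4 was 1.50-fold lower (-0.58, SE 0.17, adjusted p = 0.025), but without any one of empty vector 2 or 3 or knockdown 4, 5 or 6 its adjusted p was 0.0506 to 0.0954. Kcnab2, the other beta subunit, was 1.26-fold higher against empty vector (0.33, adjusted p = 0.0191) and 1.39-fold against wild-type (0.47, adjusted p = 0.00185). Its second probe set was dim and differed by -0.35, and the mean of both gave -0.01 (adjusted p = 0.972) against empty vector and 0.03 (0.845) against wild-type. Without empty vector 3 its difference was 0.25 (adjusted p = 0.0872), without knockdown 4 it was 0.31 (0.069) and without knockdown 5 it was 0.34 (0.0554). Kcna1 and Kcna6, also Kv1 pores, lay near background, with differences of 0.11 (SE 0.09) and 0.06 (SE 0.12) that did not pass.

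The Kv3 pore Kcnc1 was lower by the probe set used for it, and Kcnc2 was higher. Kcnc1 read 9.70, 9.63 and 9.61 on wild-type, 9.69, 9.65 and 9.59 on empty vector and 9.10, 9.01 and 9.15 on knockdown arrays. The control arrays lay close together, with the knockdown arrays apart below them. By this set it fell 1.47-fold against either control (-0.55, SE 0.08, adjusted p = 0.000261 against empty vector). The 3 other Kcnc1 probe sets, all above background in cell bodies, had differences of 0.16, 0.02 and -0.07, none of which passed, and with the mean of all 4 the difference was -0.11 (adjusted p = 0.267). Kcnc2 rose, from 8.38, 8.65 and 8.40 with empty vector to 8.97, 8.95 and 9.05, 1.43-fold (0.51, SE 0.12, adjusted p = 0.00729), and 1.38-fold against wild-type (adjusted p = 0.00932). Kcnc4 was lower against wild-type (-0.36, adjusted p = 0.0238), and against empty vector its difference of -0.27 missed the threshold (adjusted p = 0.0987).

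Kcns2, a silent subunit that forms no channel alone and modifies Kv2 pores, had the largest rise among the called channel genes. It read 9.35, 9.23 and 9.01 with wild-type, 8.87, 8.65 and 9.06 with empty vector and 9.76, 9.71 and 9.88 with the knockdown. The knockdown arrays exceeded all controls, and the empty vector arrays tended to be the lowest, with 1 of them within the wild-type range. The rise was 1.90-fold against empty vector (0.92, SE 0.12, adjusted p = 0.000111) and 1.50-fold against wild-type (0.59, adjusted p = 0.00198). Its second probe set was dim in every cell body group. Kcnq3, a Kv7 subunit of the M-current, went the other way, from 10.13, 10.34 and 10.15 with empty vector to 9.71, 9.60 and 9.46, 1.53-fold lower (-0.62, SE 0.09, adjusted p = 0.000404), and 1.35-fold lower than wild-type (-0.44, adjusted p = 0.00304). Its partner in the same family, Kcnq5, had a difference of 0.04 (SE 0.09).

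The Kv4 pores of the A-type current gave no call against either control. The pore Kcnd2 averaged 10.60 (SD 0.20, n = 3) in wild-type, 10.52 (SD 0.11, n = 3) in empty vector and 10.39 (SD 0.09, n = 3) in knockdown cultures, and Kcnd3 averaged 9.78, 9.61 and 9.57. Knockdown and control arrays overlapped for Kcnd2 against both controls. Of the KChIPs, calcium-binding partners of Kv4, Kcnip4 differed from empty vector by -0.06 (SE 0.15), Kcnip2 by -0.32 (adjusted p = 0.0706) and Kcnip3 by -0.18. Kcnip3 was lower than wild-type (-0.26, adjusted p = 0.0423).

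Among inward rectifiers and leak channels, Kcnj10, the Kir channel through which astrocytes buffer potassium, read 7.49, 7.50 and 7.75 with wild-type, 7.54, 8.18 and 7.54 with empty vector and 6.96, 7.02 and 7.14 with the knockdown. All knockdown arrays were below all controls. It fell 1.64-fold against empty vector (-0.72, SE 0.15, adjusted p = 0.00399) and 1.46-fold against wild-type (adjusted p = 0.0153). The second call was lost without wild-type 3 (-0.46, adjusted p = 0.0572), knockdown 4 (-0.50, 0.057) or knockdown 5 (-0.53, 0.0506). Astrocyte markers were read beside it. Against empty vector 5 of 8 fell (Aqp4 by 1.40 and Gja1 by 1.32 on the log2 scale), where 28.0% of all genes were called. Against wild-type 3 of 8 fell and 1 rose (median -0.22), where 36.0% of all genes were called. Their mean level was 9.41 to 9.57 on wild-type, 9.43 to 9.68 on empty vector and 8.82 to 9.29 on knockdown arrays. S100b was never above background in any cell body group. Of 6 oligodendrocyte lineage markers 4 fell against empty vector, with means of 8.89 to 9.42 there and 7.72 to 8.48 with the knockdown. All 6 were above background in controls. Also against empty vector, 3 of 4 progenitor and cycling markers fell (9.48 to 9.81 against 8.31 to 8.80). So did 3 of 6 mural and smooth muscle markers (7.02 to 7.32 against 5.87 to 6.25). All 10 microglia markers rose (5.70 to 6.02 against 8.0 to 8.36, with wild-type at 7.61 to 7.69). Against wild-type 5 oligodendrocyte lineage, 3 progenitor and cycling and 4 mural and smooth muscle markers fell, and 6 microglia markers rose. The part of these cells in any channel difference was not tested. The resting leak channel Kcnk3 was 1.22-fold lower (-0.28, adjusted p = 0.0452), and 1.29-fold lower than wild-type (adjusted p = 0.00935). Kcnk1 and Kcnk2, leak channels read near 10.02 and 9.45 with the knockdown, differed from empty vector by 0.10 (SE 0.10) and -0.17 (SE 0.09), and Kcnj3, a GIRK pore, by 0.13 (SE 0.18). Kcnj9, the GIRK3 pore, was lower by the test (-0.45, adjusted p = 0.0111) with both groups dim, without sets ending in _x_at, _s_at or _a_at the difference was -0.21 (adjusted p = 0.371), and without knockdown 4 or 5 it was -0.39 (adjusted p = 0.0519 and 0.0563).

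**Figure D2:**
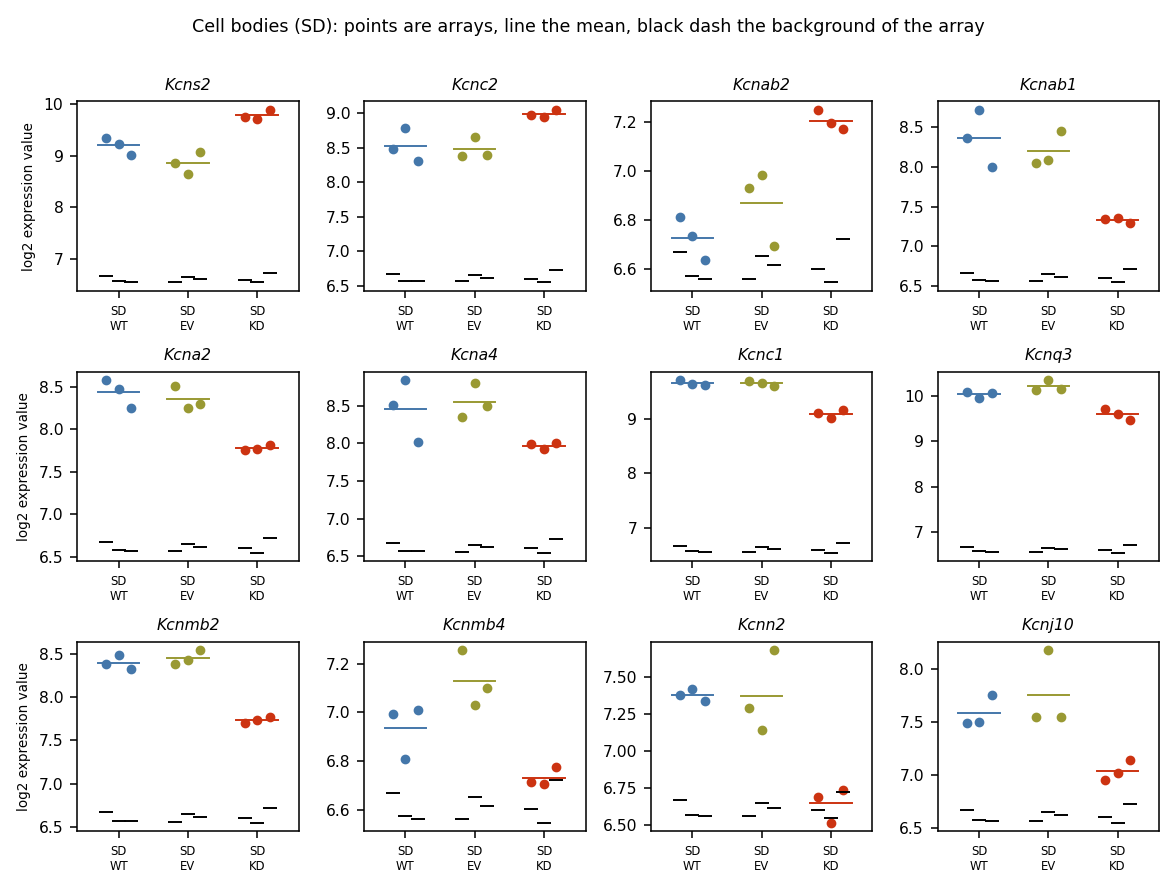
Log2 expression values (vertical axes, each with its own range) of 12 potassium channel genes on the 9 cell body (SD) arrays of wild-type (WT), empty vector (EV) and Smn knockdown (KD) cultures. Points are arrays, coloured lines group means of 3 and black dashes the background level of each array; Kcns2, Kcnc2 and Kcnab2 lie higher in KD than in EV and the other 9 lower, and Kcnn2 and Kcnmb4 come close to the background level in KD.

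Smaller channel groups completed the cell bodies. Kcne4, an inhibitory single-span subunit, was lower than wild-type (-0.51, adjusted p = 0.0216) and not called against empty vector (-0.25, SE 0.16). Without wild-type 1 its difference was -0.31 (adjusted p = 0.0726), and without knockdown 4 it was -0.39 (adjusted p = 0.0987). Kcnn4, the intermediate-conductance calcium-activated channel, was lower than wild-type (-0.37, adjusted p = 0.00475) at levels next to background. The sodium-activated Kcnt2 differed from empty vector by 0.09 (SE 0.18). Empty vector against wild-type gave 1 call among the 79 genes (1.27% against 2.00% of all genes): the leak channel Kcnk6, below background in every group, was lower with the vector (-0.80, adjusted p = 0.00351). No gene above background was called there by limma. The unadjusted p was under 0.05 for 4 of these 34 genes and for 3138 of all 18191 genes.

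Promoter sequence was available for 60 of the 79 genes in RefSeq tables of build GRCm38.p6, as windows from 250 bases before to 50 after an annotated start, both strands searched. The GC box GGGCGG was found in 47.1% of the 85 windows of these genes and in 35.7% of 32851 windows of all genes, and the TATA box TATAAA in 5.88% and 13.6%. The 250 bases before the start are shown for Kcnmb2, Kcnc1 and Kcnj10, which were lower in knockdown cell bodies by the probe sets used for them (Kcnc1 by 1 of its 4) and each have 1 window, with matches in capitals:
Kcnmb2 (chr3:31902453-31902702, plus strand): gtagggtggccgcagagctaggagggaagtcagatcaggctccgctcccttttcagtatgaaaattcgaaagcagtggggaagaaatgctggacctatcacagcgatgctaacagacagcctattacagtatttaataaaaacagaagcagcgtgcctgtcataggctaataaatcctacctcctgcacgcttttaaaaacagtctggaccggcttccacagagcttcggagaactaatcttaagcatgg
Kcnc1 (chr7:46396218-46396467, plus strand): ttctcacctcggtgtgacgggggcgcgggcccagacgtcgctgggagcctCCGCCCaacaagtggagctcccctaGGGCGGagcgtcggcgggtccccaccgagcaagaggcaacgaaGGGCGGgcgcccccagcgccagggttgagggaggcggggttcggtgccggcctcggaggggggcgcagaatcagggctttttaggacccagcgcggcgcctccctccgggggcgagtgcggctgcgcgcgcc
Kcnj10 (chr1:172340960-172341209, plus strand): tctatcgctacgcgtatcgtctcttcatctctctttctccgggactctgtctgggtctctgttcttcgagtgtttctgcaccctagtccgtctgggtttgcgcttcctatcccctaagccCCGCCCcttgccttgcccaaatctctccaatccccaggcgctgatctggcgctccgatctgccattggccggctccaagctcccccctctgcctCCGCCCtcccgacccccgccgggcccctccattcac
The 3 stretches differ in makeup, with 47.2% G or C in Kcnmb2, 74.4% in Kcnc1 and 62.0% in Kcnj10. Kcnc1 holds 3 GC boxes and Kcnj10 holds 2, whereas neither motif is in the Kcnmb2 window. A match describes letters only and says nothing of a factor.

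Genes that work with potassium channels were read from lists. Of 25 partners and anchors, 5 rose and 5 fell in knockdown against empty vector cell bodies, where 28.0% of all genes were called (median -0.04, against -0.02 for all genes). Dpp10, a Kv4 accessory subunit, fell 2.46-fold (-1.30, adjusted p = 9.48e-06). Ank3, ankyrin G, which holds Kv7 and sodium channels at the initial segment, fell 2.44-fold (-1.29, adjusted p = 2.89e-05). The endoplasmic reticulum protein Vapb, which clusters Kv2 channels, fell 1.73-fold, and the scaffold Dlg3 rose 1.49-fold. Of 14 sodium, HCN and related channels 1 rose and 5 fell (median -0.21), led by the leak channel Nalcn, 1.90-fold lower (-0.93, adjusted p = 1.42e-05), with Scn3b 1.49-fold, Scn1a 1.63-fold and Hcn3 1.31-fold lower. Of 12 potassium pump and cotransporter genes 2 rose and 1 fell: the pump regulator Fxyd6 (2.04-fold), the pump beta subunit Atp1b3 (1.65-fold) and the kinase Wnk1 (1.32-fold lower).

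How channel transcripts in axons compared with cell bodies was asked in the 6 wild-type and 6 empty vector arrays together. The compartments were normalized apart, and the 181 background probe sets themselves read higher in axons, by a median of 0.50 in wild-type and 0.62 in empty vector arrays. Of the 79 genes 68 passed (47 higher, 21 lower; 86.1% against 61.6% of all genes, 6487 higher and 4719 lower). Of the 47 higher, 35 were dim in every group, and the size of this offset was not removed from them. With genes dim in all groups left out before the fit, 25 of 34 channel genes passed, 9 higher and 16 lower. The share and direction over all genes under this filter are not given here. The 34 genes above background in some group had 12 higher and 18 lower, with a median of -0.78 against 0.18 for all genes, but the rule that kept them favours genes high in one compartment, and this supports nothing further.

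Both Kv4 pores were lower in axons. Kcnd2 read 10.40 to 10.82 on the 6 control cell body arrays and 7.27, 8.83 and 8.21 (wild-type) and 8.92, 5.86 and 8.10 (empty vector) on axonal arrays. No axonal array reached the cell body range, and axonal empty vector 2 was below background. The fall was at least 5.37-fold (-2.70, SE 0.48, adjusted p = 0.000506). Kcnd3 fell at least 3.95-fold (-2.66, adjusted p = 0.00114), although with the mean of all its probe sets the difference was -0.22 (adjusted p = 0.278). The leak channel Kcnk2 fell at least 4.55-fold (-2.44, adjusted p = 0.000818), Kcnt2 at least 1.34-fold (-2.44, adjusted p = 0.00626), Kcnmb2 at least 2.58-fold (-2.13, adjusted p = 2.63e-05) and Kcnip4 at least 2.13-fold (-2.20, adjusted p = 0.00376; -1.55 and 0.111 within the empty vector arrays). For Kcnt2 the compartments overlapped. Its axonal wild-type 3 array lay 2.05 above background and read above every control cell body array, whereas its other axonal control arrays were below background.

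The leak channel Kcnk1 was lower in axons yet above background there in both control groups. It read 9.74 to 10.08 on control cell body arrays and 8.22, 9.71, 7.37, 8.27, 9.63 and 9.57 on axonal ones, all 6 above background, 2.18-fold lower (-1.13, SE 0.32, adjusted p = 0.00858). With all 18 arrays quantile normalized together the difference was -0.26 (adjusted p = 0.579), and within the empty vector arrays it was -0.76 (adjusted p = 0.181). Kcnq3 was above background on all empty vector axonal arrays (9.24, 8.27 and 8.58), and fell at least 3.38-fold over both controls (-1.77, adjusted p = 0.000585; -0.94 and 0.0623 under joint normalization). Kcnc1 fell at least 3.43-fold (-2.16, adjusted p = 0.0211). The call was lost without axonal wild-type 2 (-1.55, adjusted p = 0.051), under joint normalization (-1.46, 0.199), within the wild-type arrays (-2.51, 0.079) and within the empty vector arrays (-1.81, 0.166). Kcnj3 and Kcnn2, below background on every axonal array, fell at least 1.20-fold and 1.25-fold. With the mean of all probe sets of a gene the differences of Kcnk1 (-0.42), Kcnc1 (-0.44), Kcnq3 (-1.22) and Kcnj3 (-0.02) did not pass. For Kcns2 (-0.68), Kcna2 (-0.82), Kcnip2 (0.63) and Kcnq5 (-0.05) the difference did not pass.

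A few channel genes read higher in axons. Kcnn4 read 8.95, 7.22 and 7.07 on wild-type and 7.48, 8.39 and 7.21 on empty vector axonal arrays and 6.48 to 6.88 on control cell body arrays, with no overlap (at least 2.02-fold; 1.04, adjusted p = 0.0171). Kcnj9 was at least 1.85-fold higher (0.95, adjusted p = 0.00677), but by 0.19 (adjusted p = 0.353) without probe sets ending in _x_at, _s_at or _a_at, of which its set is 1. Higher too were Kcnj11, the KATP pore, at least 1.55-fold (0.66, adjusted p = 0.00107), and Kcnh3, an EAG family channel, 1.57-fold (0.65, SE 0.19, adjusted p = 0.00938). Kcnip3, which also acts as a transcriptional repressor, was 1.36-fold higher (0.44, adjusted p = 0.00521), a call lost with the mean of its probe sets (0.35, adjusted p = 0.0827). Within the empty vector arrays Kcnn4 did not pass (1.14, adjusted p = 0.0685). These sizes lie close to the 0.50 and 0.62 of the background probe sets, except for Kcnn4, Kcnj9 and Kcnf1 (0.92, dim in both). Within the wild-type arrays alone Kcnn4 (0.95, adjusted p = 0.14), Kcnj9 (0.70, 0.147), Kcnh3 (0.42, 0.227), Kcnip3 (0.29, 0.172) and Kcnf1 (0.59, 0.192) did not pass. Beside these, 6 of 8 astrocyte markers were lower and 1 was higher in axons (median -2.64), where 61.6% of all genes were called. Of the 8, 1 was above background in each axonal control group. Their mean level was 5.71 to 8.62 on axonal control arrays.

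What the knockdown changed in axons was asked against the same controls. No potassium channel gene passed the limma test against empty vector or against wild-type (0 of 79 each, against 0.176% and 0.0990% of all genes). An unadjusted limma p under 0.05 was found for 18 and 22 of the 79, and for 3318 and 3803 of all 18191 genes. The lowest adjusted p of a channel gene was 0.0853 and 0.0608. Empty vector against wild-type also gave 0 of 79 (0 of all genes). There the unadjusted p was under 0.05 for 4 of the 79 and for 603 of all genes. Groups did not overlap for 23 of 79 genes against empty vector (29.1%, against 21.8% of all genes) and for 28 against wild-type (35.4% against 28.8%). Values are therefore given as measured, with no change claimed. In the single fit to all 18 arrays, whose spread includes the less variable cell body arrays, 20 passed against empty vector and 25 against wild-type. The share of all genes that passed in that fit is not given here. The axonal knockdown arrays stood apart from axonal controls in background level, and the background probe sets were higher on them by a median of 0.14 against empty vector (119 of 181) and 0.21 against wild-type (126 of 181). Microglia markers averaged 6.90 to 10.19 on wild-type, 5.64 to 6.02 on empty vector and 6.42 to 8.85 on knockdown axonal arrays, with 4, 0 and 2 of 10 above background. The part of the background level or of these cells in any channel difference was not tested.

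Transcripts high in control axons and low in knockdown axons were led by Kcnk1 and Kcnq3, by the probe sets used for them. Kcnk1 read 8.22, 9.71 and 7.37 in wild-type, 8.27, 9.63 and 9.57 in empty vector and 6.44, 6.99 and 6.82 in knockdown axons. All knockdown arrays were below background and below every control array. The difference was -2.41 against empty vector (SE 0.61, at least 2.22-fold, adjusted p = 0.109) and -1.69 against wild-type (at least 1.34-fold, adjusted p = 0.17). Kcnq3 read 7.72, 6.92 and 9.35, then 9.24, 8.27 and 8.58, then 6.03, 6.03 and 6.92 in the same order, below background on all knockdown arrays and below every empty vector array, with 1 knockdown array level with the lowest wild-type array. Its difference from empty vector was -2.37 (SE 0.61, at least 1.61-fold, adjusted p = 0.111). With the mean of all probe sets of a gene the limma differences from empty vector were smaller. They were -0.62 for Kcnq3 (adjusted p = 0.82) and -1.35 for Kcnk1 (adjusted p = 0.158). In all, 13 genes above background in an axonal control group were not so in knockdown axons, among them Kcna2, Kcnc1, Kcnc4, Kcnd2, Kcnip2, Kcnq5 and Kcns2. Of all genes, 30.4% were above background in wild-type, 24.4% in empty vector and 11.9% in knockdown axons. Several scattered widely: Kcnq5 read 5.98, 10.32 and 6.50 on the knockdown arrays, and Kcnc1 read 4.24, 8.33 and 4.01.

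Kcnh3, Kcnj9 and Kcnk3 read higher in knockdown axons. Kcnh3 read 8.94, 8.25 and 8.47 in wild-type, 8.97, 9.48 and 8.41 in empty vector and 10.98, 10.40 and 10.07 in knockdown axons. The groups did not overlap, and all 9 values were above background. The difference was 1.53 against empty vector (SE 0.38, 2.89-fold, adjusted p = 0.104) and 1.93 against wild-type (3.81-fold, adjusted p = 0.0625). Kcnj9 read 7.84, 7.21 and 6.96, then 7.59, 8.62 and 6.98, then 10.42, 9.23 and 9.88, a difference of 2.11 (SE 0.49, 4.32-fold, adjusted p = 0.0899) and 2.51 (5.68-fold, adjusted p = 0.0621). Kcnk3 read 8.04, 7.28 and 7.73, then 7.71, 9.0 and 7.26, then 9.93, 9.38 and 9.35 (1.56 against empty vector, 2.95-fold, adjusted p = 0.141, and 1.87 against wild-type, adjusted p = 0.082). For all 3 genes the lowest knockdown array exceeded the highest control. Kcnip1 (1.40, at least 2.55-fold, adjusted p = 0.0883) and Kcnf1 (1.19, at least 2.17-fold, adjusted p = 0.236) were, by the probe sets used for them, above background in knockdown axons alone, while other sets of both genes were above it in cell bodies. Without empty vector 2 and knockdown 1, the arrays with the fewest genes above background, the differences from empty vector were 1.54 for Kcnh3, 2.27 for Kcnj9, 1.46 for Kcnip1, -2.02 for Kcnk1 and -2.43 for Kcnq3 (adjusted p 0.102 to 0.259).

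**Figure D3:**
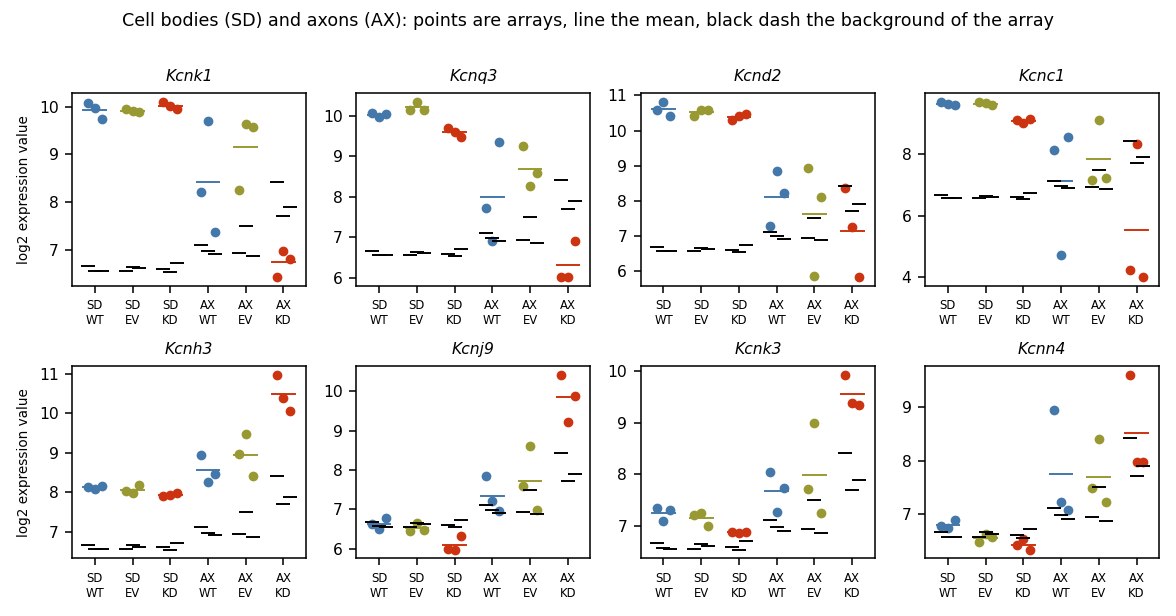
Log2 expression values (vertical axes, each with its own range) of 8 potassium channel genes on all 18 arrays, by the probe set used. Arrays were of cell bodies (SD) and axons (AX) of wild-type (WT), empty vector (EV) and Smn knockdown (KD) cultures. Points are arrays, coloured lines group means of 3 and black dashes the background level of each array; Kcnk1 and Kcnq3 are below background on all 3 AX KD arrays, Kcnh3, Kcnj9 and Kcnk3 are higher there than on all AX control arrays, and no difference among axonal groups passed the test.

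Probe sets of a gene often disagreed. The set for Kcnip1 with the highest mean (1433156_at) was dim in all cell body groups and read 8.92, 8.60 and 8.43 in knockdown axons. Another set of the gene, 1448459_at, read 8.43, 8.47 and 7.96 in wild-type, 8.35, 7.58 and 8.60 in empty vector and 7.52, 7.41 and 7.70 in knockdown cell bodies, and 5.64, 4.85 and 4.55 in knockdown axons, below background. So the gene is dim in cell bodies by the first set and above background in all 3 cell body groups by the second. In a fit of every probe set on its own, the second was lower in knockdown than in wild-type cell bodies (-0.74, adjusted p = 0.0197) and just missed the threshold against empty vector (-0.63, adjusted p = 0.0528). Kcnf1, a silent subunit, likewise had a set, 1454768_at, that was above background with empty vector in cell bodies and lower with the knockdown (-1.14, adjusted p = 0.000285), whereas its first set was dim there. The other Kcnh3 sets were dim in axons with differences of 0.54, -0.61 and -0.11 from empty vector, and of the 3 other Kcnj9 sets 1433029_at differed in the same direction (1.28, adjusted p = 0.129), 1428602_at by 0.27 and 1450712_at by -0.71. The other Kcnc4 set read 8.08, 9.16 and 7.44 in empty vector and 10.59, 9.69 and 9.44 in knockdown axons, opposite to the first (1.68 against -1.11, neither called). On their own, 26 of the 153 probe sets passed in cell bodies against empty vector (24.4% of all probe sets) and 36 against wild-type (32.7%), and none in axons (0.149% and 0.0887%).

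**Figure D4:**
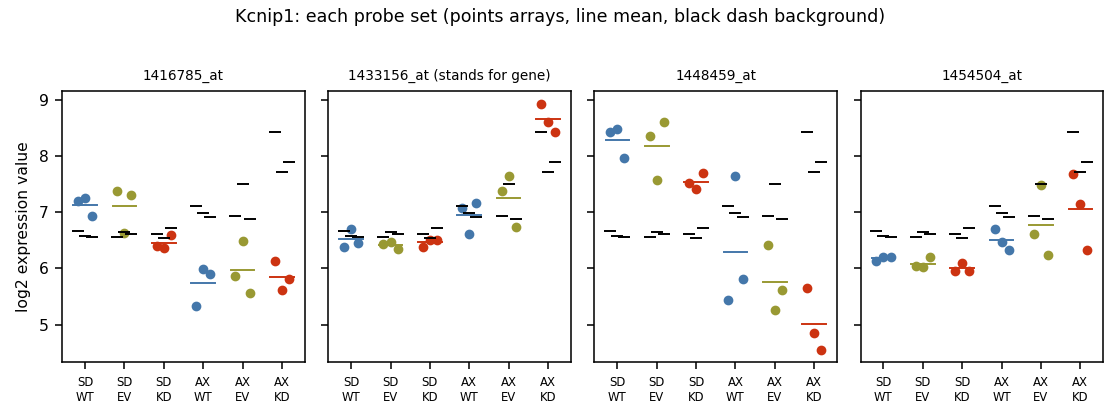
Log2 expression values of the 4 Kcnip1 probe sets (1 panel each, common vertical axis) on all 18 arrays, in cell bodies (SD) and axons (AX) of wild-type (WT), empty vector (EV) and Smn knockdown (KD) cultures. Points are arrays, lines group means of 3 and black dashes the background level; 1433156_at is above background in the AX KD group alone, and 1448459_at in the 3 SD groups alone.

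Among partners in axons, no gene of the 3 lists passed against empty vector (0 of 25, 0 of 14 and 0 of 12 by limma). The Kv4 partner Dpp6 averaged 6.38 in knockdown and 9.49 in empty vector axons (adjusted p = 0.0751), the sodium channel subunit Scn3b 5.80 and 9.93 (adjusted p = 0.0846), and the pump subunit Atp1b1 11.60 and 12.47 (adjusted p = 0.369). In control axons against cell bodies, 5 of the 25 partners were higher and 10 lower. Of the 14 sodium and HCN channels 4 were higher and 3 lower, and of the 12 pumps and cotransporters 3 and 5. Of all genes 61.6% were called there. Among the lower ones, Dpp10 fell at least 9.45-fold (-4.37, adjusted p = 8.6e-05) and Atp1b2 4.60-fold (-2.20, adjusted p = 0.00129).

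Whether the knockdown difference from empty vector was the same in both compartments was tested as an interaction, which pools the spread of the axonal and the less variable cell body arrays. It passed for 8 of 79 genes (10.1% against 6.77% of all genes), 5 of them above background in some group: Kcnj9 (2.56), Kcnk3 (1.84), Kcnh3 (1.65) and Kcnip1 (1.35) were relatively higher and Kcnk1 (-2.51) relatively lower in axons, with adjusted p between 0.0135 and 0.0367. By the set used, Kcnip1 was above background in knockdown axons alone, the group whose high value makes its term positive. Being above background therefore adds no support for it. Without any one empty vector or knockdown cell body array the count was 3. Kcnk3, Kcnh3, Kcnip1 and Kcnk1 then had adjusted p of 0.0518 to 0.087. With the mean of all probe sets Kcnk3 (0.85, adjusted p = 0.138), Kcnh3 (0.26, 0.595), Kcnip1 (0.53, 0.357) and Kcnk1 (-1.51, 0.0531) did not pass. Without sets ending in _x_at, _s_at or _a_at Kcnj9 did not (0.48, adjusted p = 0.485). With a variance prior that follows the mean level (limma-trend), Kcnk3 and Kcnh3 had adjusted p of 0.0501 and 0.0535. With all 18 arrays quantile normalized together Kcnk3 had an adjusted p of 0.0501. Without axonal knockdown 1 the count was 5, and without axonal empty vector 2 it was 15.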

How the data were processed

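The authors deposited log2 expression values of 45101 probe sets on 18 Affymetrix Mouse430_2 arrays; the software and normalization are not given in the sources used here. From the values, the arrays of each compartment share 1 distribution (percentiles differ by at most 0.0035), set separately for the compartments, so levels across compartments compare values normalized apart. Arrays carry no depth, and the 3 arrays per group limit the precision.

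Probe sets were named by the platform annotation: 34958 had 1 gene, 932 several and 9211 none. All 79 symbols matched the reference gene table by gene identifier. Control probe sets (64) and 11 lacking values were left out. The tests were lmFit and eBayes of limma 3.58.1, run under R 4.3.3 and adjusted by Benjamini-Hochberg over 18191 genes, threshold 0.05. Comparisons within a compartment used its 9 arrays, the others all 18 arrays. SE is that of limma, and the scripts were tested on simulated data. Folds against a group not above background are bounds, with dim arrays set at the higher of their value and the background level ("at least"); where both groups were dim no fold is given.

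Genes were named by a rule: those above background in some group, called and not overlapping (up to 10 a direction), or the 5 with the lowest p where none was called, the top gene of each family, a short fixed list, and up to 4 genes of each partner list. A few more were named after their values were seen. The genes and lists were chosen with earlier results of these data known. Replicate numbers come from the titles and were checked for pairing: same-numbered arrays correlated, after removing group means, between -0.19 and 0.23, with 1 of 18 values over 0.1, so no pairing was assumed. Alternatives covered the probe set choice, filters, the variance prior, arrays left out, joint normalization and the replicate block.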

Additional observations from a re-analysis of the deposited data

Results flagged for a closer look

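The interaction term of the limma fit passed for 8 of 79 potassium channel genes (10.1%, against 6.77% of all genes). For these the difference between knockdown and empty vector was not the same in axons and cell bodies. The fit pools the axonal with the less variable cell body arrays. Kcnj9 (2.56), Kcnk3 (1.84), Kcnh3 (1.65) and Kcnip1 (1.35) had a higher and Kcnk1 (-2.51) a lower log2 difference in axons than in cell bodies. The remaining 3, Kcnk6 (-1.58), Kcnk10 (-1.77) and Kcnv1 (1.32), were below background in every group, so no level stands behind them. Kcnip1 was above background only in knockdown axons by the set used, which adds no support for it. Each of the first 5 lost its call under another choice of probe sets: Kcnj9 without sets ending in _x_at, _s_at or _a_at (0.48), and Kcnk3 (0.85), Kcnh3 (0.26), Kcnip1 (0.53) and Kcnk1 (-1.51) with the mean of all sets. Kcnk3, Kcnh3, Kcnip1 and Kcnk1 also lost it without any one empty vector or knockdown cell body array. Against empty vector alone, none of the 8 passed within axons.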

How the results depend on the processing

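Among the 67 differences named, 937 values under other settings were computed: 813 kept direction and side of the threshold, 111 kept the direction and lost the call, 11 gained it and 2 turned sign. The 2 were Kcnab2 in cell bodies against empty vector (-0.01) and Kcnf1 in control axons against cell bodies (-0.08), both with the mean of all probe sets. A single fit to all 18 arrays moved the counts of called channel genes in cell bodies from 21 to 1 against empty vector, from 22 to 0 against wild-type and from 1 to 0 for empty vector against wild-type, and in axons from 0 to 20 and from 0 to 25. Leaving out genes dim in every group of the fit gave 13 against empty vector and 0 for the vector in cell bodies, 1 (Kcnj9) against wild-type in axons, 25 for axons against cell bodies and 5 for the interaction. For axons against cell bodies the count of 68 became 41 with empty vector arrays alone, 30 with wild-type arrays alone and 41 after joint quantile normalization. The interaction gave 4 with the mean of all probe sets. Leaving out 1 array at a time gave 16 to 21 and 18 to 23 in cell bodies, 1 to 2 for the vector there (2 without empty vector 2), 0 in each axonal comparison, 56 to 67 for axons against cell bodies and 3 to 15 for the interaction. The causes were not tested. Counts above background became 41 in each cell body group and 21 in wild-type axons at the 90th percentile. The shares of all genes were then 61.3% to 61.9% and 43.1%. At the 99th they were 2, 4 and 3 in wild-type, empty vector and knockdown axons (21.1%, 13.0% and 5.6% of all genes). When at least 2 of the 3 arrays sufficed they were 24 and 26 in control axons (43.1% and 41.2% of all genes). With the title number as a replicate block the counts were 1 for the vector in cell bodies and 0 for each axonal comparison. For axons against cell bodies the count was 59. Whether equal numbers mark arrays of a common preparation is not stated. No paired analysis was possible for the somatodendritic knockdown comparisons because their arrays share no number with the controls. Leaving out axonal empty vector 2 and knockdown 1 together, chosen after seeing the data, left the axonal counts at 0. Signal near background limits what axonal arrays can show.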
